A study of Mus musculus with 12 samples.

Results

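The genes described here are 10 that act on the surface of lipid droplets, chosen by name from the 47729 genes counted in each liver: the perilipins Plin2, Plin3, Plin4 and Plin5, the CIDE proteins Cidea, Cideb and Cidec, the lipases Pnpla2 and Pnpla3, and the lipase inhibitor G0s2. Their mRNA was measured by RNA-seq of whole liver from 12 C57BL/6 mice, 4 in each of 3 groups. Naive_vehicle mice (healthy) were wild type and received vehicle, with neither streptozotocin nor the high-fat diet. STAM_vehicle mice received vehicle after streptozotocin at 2 days of age and a high-fat diet from week 4, which together give diabetes with fatty liver. In the study, sections of vehicle-treated STAM livers showed fat deposits, but the measured liver triglyceride was lower in these mice than in healthy mice. STAM_treated mice had the same induction and were given I-BET151, an inhibitor of the BET bromodomain proteins, at 10 mg/kg by mouth once a day. The study gave the drug in hydroxypropyl methylcellulose with Tween but the vehicle as methylcellulose, so drug and carrier cannot be told apart. Dosing ran from week 6 to week 9, when livers were taken, and male mice were used throughout. The model is chemically induced and the RNA is of all liver cells, so that fewer cells of a type and less RNA per cell cannot be told apart.

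A lipid droplet is a core of triglyceride and cholesteryl ester under a single layer of phospholipid, and the proteins on that layer set how fast the fat is stored or released. Perilipins coat the droplet and limit the access of lipases. CIDE proteins sit where droplets touch and move lipid from the smaller into the larger droplet. Pnpla2 (adipose triglyceride lipase) takes the first fatty acid off a triglyceride, and G0s2 binds and blocks it. In the liver a fatty state is known for larger and more numerous droplets, and several coat genes are known targets of the PPAR nuclear receptors.

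On GRCm38, with the gene models of GENCODE M21, the perilipin genes lie at chr4:86648386-86670060 (Plin2), chr17:56277476-56292873 (Plin3), chr17:56100591-56109803 (Plin4) and chr17:56111601-56117596 (Plin5), so Plin4 and Plin5 are neighbours. Of the CIDE genes, Cideb and Cidec lie at chr14:55754050-55758458 and chr6:113424634-113435760. Pnpla2 lies at chr7:141455198-141460743, Pnpla3 at chr15:84167837-84187236 and G0s2 at chr1:193272161-193273217. Cideb shares 1136 exonic bases, 76.3% of its exons, with Nop9 on the opposite strand. The kit was stranded, but whether counting used the strand is not given in the sources used here, so reads of Cideb and Nop9 (702 to 1075 counts a liver) may not be told apart and the Cideb values are uncertain to that extent. Pnpla3 shares 105 exonic bases with Gm49513 on the same strand, and Plin4 shares 17 with Hdgfl2 on the opposite strand.

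The bases before the transcription start are shown for Plin2, the most abundant perilipin mRNA of these livers, and for Plin3 and Cideb, the members past a test threshold for which the RefSeq promoter table (GRCm38) had an entry. The table held 9 of the 10 members; Cidea was not among them. All 3 genes are on the minus strand. The stretches are chr4:86670061-86670309 for Plin2, chr17:56290512-56290761 for Plin3, which lies inside an intron of the longer GENCODE model, and chr14:55758459-55758674 for Cideb, with exonic bases left out. Capitals mark the motifs CCAAT and TATAAA. They also mark the paired AGGTCA half-sites of PPAR binding, with 1 free base between them and up to 2 mismatches. Each was searched on both strands.
Plin2: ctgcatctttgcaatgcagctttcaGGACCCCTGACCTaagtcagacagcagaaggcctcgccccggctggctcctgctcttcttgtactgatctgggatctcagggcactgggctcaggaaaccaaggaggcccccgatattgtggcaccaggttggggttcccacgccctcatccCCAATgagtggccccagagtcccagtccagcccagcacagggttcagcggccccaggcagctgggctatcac
Plin3: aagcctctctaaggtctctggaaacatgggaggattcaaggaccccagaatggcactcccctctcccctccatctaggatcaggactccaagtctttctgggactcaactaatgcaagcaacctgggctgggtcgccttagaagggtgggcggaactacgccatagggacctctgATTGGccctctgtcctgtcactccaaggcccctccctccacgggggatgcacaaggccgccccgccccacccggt
Cideb: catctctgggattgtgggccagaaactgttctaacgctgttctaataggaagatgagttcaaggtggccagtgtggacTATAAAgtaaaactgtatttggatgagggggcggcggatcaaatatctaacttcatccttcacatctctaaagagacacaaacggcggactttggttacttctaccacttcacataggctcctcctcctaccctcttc
In the 250 bases before the start, CCAAT was found in 33.8% of the 32851 promoters of the table and in 5 of the 9 member genes (Plin2, Plin3, Plin4, Plin5 and Pnpla3). TATAAA was found in 12.4% of all promoters and, among the members, in Cideb, from 172 to 167 bases before the start. The paired half-sites were found in 3.24% of all promoters and, among the members, in Plin2, with 2 mismatches, from 225 to 213 bases before the start. None of the 3 motifs overlapped another in the stretches shown. A match of letters is a description and not a binding site.

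Depth was between 34711229 and 53365596 counts a liver. STAM_treated replicate 3 stood apart: its 10 most abundant genes took 7.95% of its counts against 13.5% to 18.05% in the other livers, its mitochondrial share was 2.71% against 4.51% to 7.30%, and the summed CPM of 6 hepatocyte markers was 18893 against 49463 to 118247. Calls and directions of the members that changed without it are given both ways. Alb and the other hepatocyte markers were high in all groups, as the liver label says. The sequencing lanes, taken from the file labels, held the groups unevenly, 2 of the 4 Naive_vehicle livers having a lane with no other group. Values are CPM, counts scaled to a common library size by TMM (trimmed mean of M-values), and RPKM, the same per kilobase of exon.

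Levels of the members spanned more than 3 orders of magnitude per length. In Naive_vehicle livers the RPKM was highest for G0s2 (196 ± 51.5, SD, n = 4) and Plin2 (190 ± 25.1), whose ranges over the livers overlapped. Pnpla2 (62.0 ± 7.81 RPKM) and Plin5 (61.2 ± 9.39) followed and overlapped each other, then Cideb (34.1 ± 1.18) and Cidec (24.1 ± 7.40), also overlapping. Plin4 (10.5 ± 0.747 RPKM) and Plin3 (9.76 ± 0.484) were lower, and Pnpla3 (0.406 ± 0.173) and Cidea (0.0715 ± 0.0247) were at the bottom, each apart from its neighbours. In STAM_vehicle livers Plin2 was first at 153 ± 50.6 RPKM and G0s2 second at 91.0 ± 38.9, with overlapping ranges, and Cidea (1.87 ± 0.982) stood above Pnpla3 (0.535 ± 0.106), again with overlap. In STAM_treated livers Plin2 (141 ± 27.1 RPKM) and G0s2 (138 ± 135) overlapped in range. Replicate 3 was the highest for G0s2, and without it the G0s2 value was 73.1 ± 48.2 RPKM (n = 3).

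**Figure D1:**
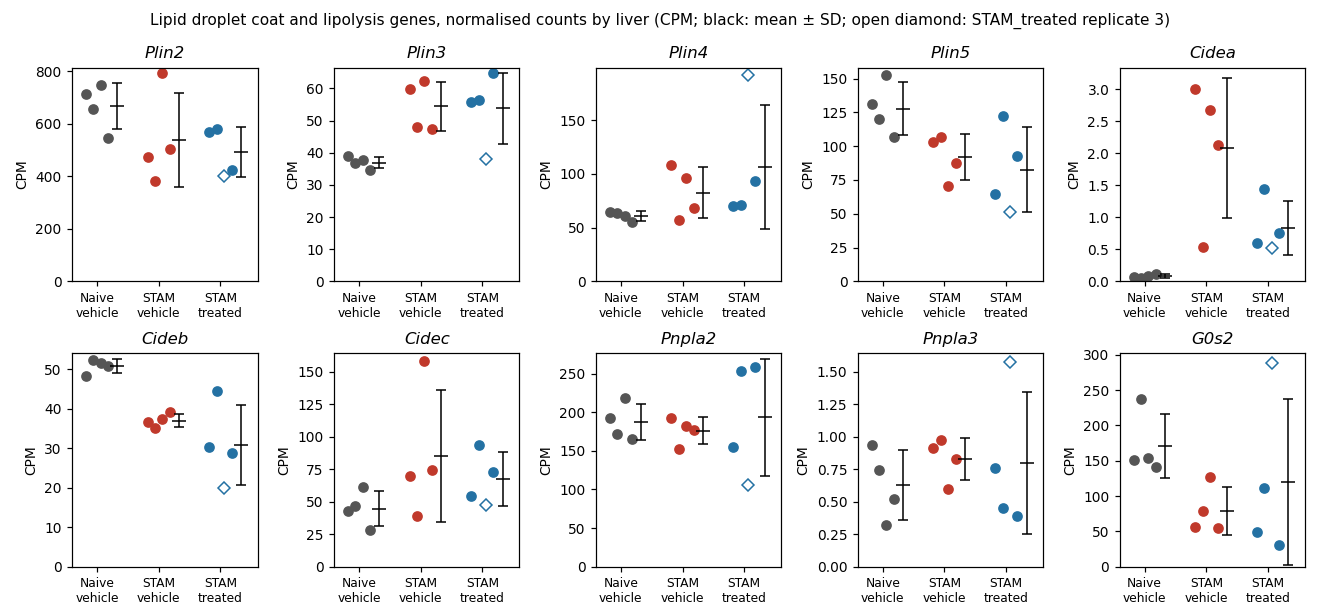
Normalised counts (CPM, linear axes from 0) of the 10 genes in each liver of Naive_vehicle, STAM_vehicle and STAM_treated mice, with the mean ± SD of 4 livers in black and STAM_treated replicate 3 as an open diamond. Cidea was at most 0.115 CPM in Naive_vehicle livers and at least 0.520 CPM in every STAM liver, while Plin2 and Pnpla2 overlapped between all groups.

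The first comparison asks which coat and lipolysis genes differ between STAM_vehicle and healthy livers. Of the 10 members, all tested, 2 were higher (Cidea and Plin3) and 0 lower in STAM_vehicle at an adjusted p of at most 0.05 by edgeR's quasi-likelihood test. Over the 16823 genes tested, 5.72% were called higher and 1.38% lower (7.1% in either direction). At an unadjusted p under 0.05 there were 4 members, against 22.3% of all genes, and DESeq2 called the same number of members, 2, against 9.95% of all genes. The fit of only these groups called 5 members and limma-voom with sample weights 4, when 23.9% and 33.7% of all genes were called. The median log2 fold change was 0.15 over the members and 0.01 over all genes tested. Groups did not overlap for 2 members that were higher and 2 that were lower (Cideb and G0s2), against 14.2% and 12.2% of all genes.

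Cidea, which joins droplets in brown fat and is little expressed in healthy liver, had the largest difference of the 10. Its counts were 3, 2, 3 and 4 in Naive_vehicle replicates 1 to 4 and 125, 28, 138 and 100 in STAM_vehicle replicates 1 to 4. In CPM these were 0.0638, 0.0530, 0.0872 and 0.115 against 3.005, 0.533, 2.67 and 2.12. Every STAM_vehicle liver was above every healthy liver, and STAM_vehicle replicate 2 was well below the other STAM_vehicle livers. The log2 fold change was 4.68 (SE 0.60, adjusted p = 0.000686 from edgeR). Since the healthy livers had 12 counts in all, the ratio of the summed counts, scaled for library size, was 25.996 with an exact 95% counting interval of 14.7 to 50.7, which covers counting error only. On GRCm38 Cidea lies at chr18:67343604-67367785. It passed the threshold in each of 12 fits with a single liver removed, with log2 fold changes of 4.45 to 4.998.

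Cidea is also an adipocyte gene, so the adipocyte markers were read beside it. Lep had no count in any liver, Plin1 (the perilipin of fat cells) 0 to 8, Adipoq 0 to 8 and Retn 0 to 3, so these 4 of the 6 markers stayed at or near 0. The summed CPM of the 6 markers was 9.40 to 15.2 in Naive_vehicle, 20.9 to 43.6 in STAM_vehicle and 23.6 to 92.8 in STAM_treated livers. Fabp4, which macrophages and endothelium also express, gave the larger part, with means of 11.2, 26.8 and 58.9 CPM in these groups. Cfd (adipsin) moved with Cidea, with 0 to 11 counts in healthy, 50 to 349 in STAM_vehicle and 58 to 170 in STAM_treated livers. Its means were 0.114, 5.26 and 1.96 CPM. Of the 6 markers only Cfd and Fabp4 could be tested by edgeR. Cfd was called higher against Naive_vehicle in STAM_vehicle and in STAM_treated livers, and Fabp4 in STAM_treated livers. Of 3 brown fat markers, Ucp1 had at most 2 counts in any liver and Cox7a1 had 11 to 35. Elovl3 had means of 97.6, 36.7 and 18.8 CPM in Naive_vehicle, STAM_vehicle and STAM_treated livers, and was called lower in STAM_treated against Naive_vehicle. The part of Cfd-expressing or Fabp4-expressing cells in the Cidea result was not tested.

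**Figure D2:**
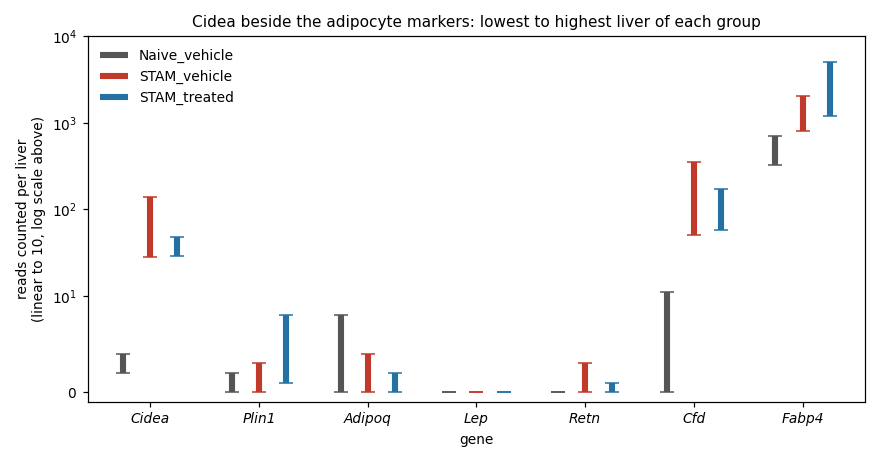
Reads counted for Cidea and 6 adipocyte markers (vertical axis, linear to 10 and log above), each bar running from the lowest to the highest of the 4 livers of Naive_vehicle, STAM_vehicle and STAM_treated mice. Cidea reached 138 counts while Plin1, Adipoq, Lep and Retn did not pass 8. The other markers, Cfd and Fabp4, reached 349 and 4976 counts and were higher in STAM than in Naive_vehicle livers.

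Among the perilipins, Plin3, the soluble member that moves onto young droplets, was higher in STAM_vehicle. It had 38.9, 36.8, 37.6 and 34.6 CPM in Naive_vehicle and 59.7, 48.1, 62.3 and 47.5 CPM in STAM_vehicle livers, replicates 1 to 4. The groups did not overlap, and the log2 fold change was 0.56 (SE 0.16, adjusted p = 0.0459 from edgeR). This adjusted p lay just under the threshold, and with a single liver removed it passed in only 2 of 12 fits, those without STAM_treated replicate 3 (0.00361) and without STAM_treated replicate 4 (0.0475); over the other 10 it ran up to 0.153 while the log2 fold change stayed between 0.48 and 0.61. Macrophages also carry Plin3 and Plin2, and 4 of 6 macrophage and Kupffer cell markers were called higher in STAM_vehicle (Adgre1, Clec4f, Cd68 and Marco), their summed CPM being 103 to 155 in healthy and 180 to 338 in STAM_vehicle livers. Their part in the Plin3 difference was not tested.

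Plin2, the main coat protein of hepatocyte droplets, was not called. It had 712, 657, 749 and 547 CPM in Naive_vehicle and 474, 380, 792 and 505 CPM in STAM_vehicle livers. The groups overlapped through STAM_vehicle replicate 3, the highest of all 8, and the log2 fold change was -0.31 (SE 0.23, adjusted p = 0.469 from edgeR). Plin4, which coats nascent droplets in fat cells, had 54.8 to 64.4 CPM in healthy and 56.7 to 108 CPM in STAM_vehicle livers (log2 fold change 0.43, SE 0.29). Plin5, which ties droplets to mitochondria in oxidative tissues, had 107 to 153 against 70.3 to 107 CPM (log2 fold change -0.47, SE 0.24). Neither passed, with adjusted p = 0.417 for Plin4 and 0.268 for Plin5 from edgeR.

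Cideb, the CIDE gene of normal liver, which loads triglyceride onto lipoprotein particles, was among the most tightly grouped members. It had 48.2, 52.3, 51.4 and 50.8 CPM in Naive_vehicle and 36.5, 35.0, 37.3 and 39.0 CPM in STAM_vehicle livers, with no overlap. The fit of all 12 livers gave a log2 fold change of -0.46 (SE 0.18). The adjusted p was 0.150 from edgeR, and Cideb was not called. It was called lower in 2 of 10 other settings, among them the fit of only these groups, where 23.9% of all genes were called. Without STAM_treated replicate 3, which is in neither group and enters through the shared estimate of spread, the filter and the scaling, Cideb was lower, with a log2 fold change of -0.48 (SE 0.12, adjusted p = 0.0136). The summed CPM of the 6 hepatocyte markers also moved with this comparison, from 99864 to 118247 in healthy and from 49463 to 70441 in STAM_vehicle livers. This was mainly through Alb, and 0 of the 6 markers were called. The part of this sum in the Cideb values was not tested.

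Cidec (Fsp27), which enlarges droplets in fat cells and in steatotic liver, had 42.9, 46.6, 61.4 and 28.0 CPM in healthy and 70.0, 38.8, 158 and 74.7 CPM in STAM_vehicle livers. The groups overlapped, and the log2 fold change of 0.93 (SE 0.36, adjusted p = 0.144 from edgeR) became 0.45 without STAM_vehicle replicate 3, the liver that also had the highest Plin2.

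The make-up of both coat families was compared per length, as a description. Of the summed RPKM of the 4 perilipins, Plin2 made up 69.9% ± 0.798 (SD, n = 4) in Naive_vehicle, 66.7% ± 7.96 in STAM_vehicle and 65.7% ± 5.71 in STAM_treated livers. Plin5 gave 22.5% ± 1.01, 20.6% ± 6.93 and 18.3% ± 5.28. The Plin3 share was 3.63% ± 0.333, 6.45% ± 0.761 and 6.70% ± 1.37, and its range in healthy livers, up to 4.05%, lay below that in STAM_vehicle livers, from 5.63%. Among the CIDE genes, Cideb had the larger mean share in healthy livers (59.2% ± 7.50 against 40.7% ± 7.55 for Cidec). In STAM_vehicle livers Cidec did (59.8% ± 11.96 against 37.7% ± 12.3), and likewise in STAM_treated livers (62.9% ± 3.48 against 35.8% ± 3.49). The Cidec share ran from 30.6% to 48.9% in Naive_vehicle and from 46.5% to 75.6% in STAM_vehicle livers, so the ranges overlapped. Cidea remained a small part, 0.127% ± 0.0570 in healthy, 2.53% ± 1.29 in STAM_vehicle and 1.24% ± 0.235 in STAM_treated livers.

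**Figure D3:**
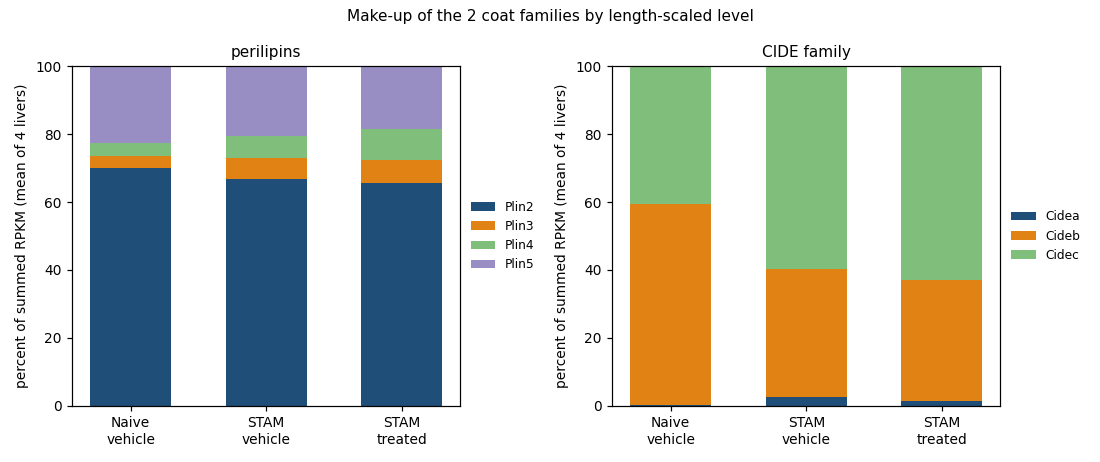
Mean share of each gene in the summed RPKM of the 4 perilipins (left) and of the 3 CIDE genes (right), in percent, for the 4 livers of each group. Plin2 made up 65.7% to 69.9% of the perilipins in every group. The mean Cidec share was 40.7% in Naive_vehicle and 59.8% in STAM_vehicle livers, with overlapping ranges.

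The lipases did not pass the test. Pnpla2 had 192, 172, 218 and 166 CPM in Naive_vehicle and 192, 152, 183 and 177 CPM in STAM_vehicle livers (log2 fold change -0.09, SE 0.24, adjusted p = 0.868 from edgeR). Both groups covered nearly the same range. Pnpla3, a triglyceride hydrolase and transacylase best known from human fatty liver disease, was close to the limit of testing in mouse liver here, at 11 to 44 counts in healthy and 31 to 51 in STAM_vehicle livers (log2 fold change 0.38, SE 0.44, adjusted p = 0.659 from edgeR).

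G0s2, the inhibitor of Pnpla2, had 151, 237, 154 and 141 CPM in Naive_vehicle and 56.3, 78.2, 127 and 55.0 CPM in STAM_vehicle livers. The groups did not overlap, although the highest STAM_vehicle liver, replicate 3, came near the lowest healthy liver. The log2 fold change was -1.11 (SE 0.54) and not called over all 12 livers (adjusted p = 0.246 from edgeR). Without STAM_treated replicate 3 it was lower (log2 fold change -1.13, SE 0.36, adjusted p = 0.0428 from edgeR). By DESeq2 without the same liver the adjusted p was 0.0598. G0s2 was called lower in 2 of 10 other settings, among them the fit of only these groups, where 23.9% of all genes were called. The ratio of G0s2 to Pnpla2 in RPKM was 2.72, 4.78, 2.44 and 2.95 in Naive_vehicle and 1.01, 1.79, 2.42 and 1.08 in STAM_vehicle livers, so that every STAM_vehicle liver was below every healthy liver, by a small margin for replicate 3.

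**Figure D4:**
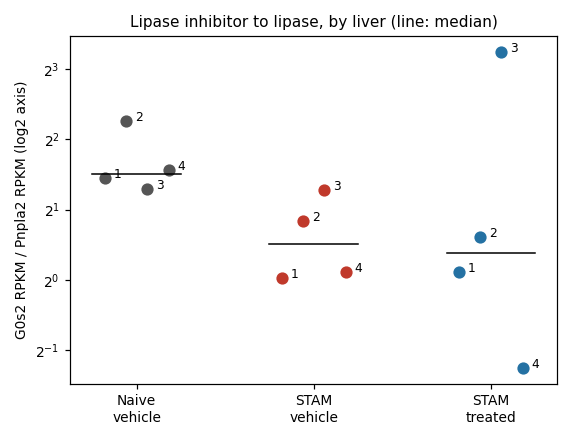
Ratio of G0s2 to Pnpla2 in RPKM (log2 axis) in each liver, numbered by replicate, with the median of each group as a line. Naive_vehicle livers lie from 2.44 to 4.78, STAM_vehicle livers from 1.01 to 2.42, and STAM_treated livers from 0.421 to 9.44, with replicate 3 at the top.

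The second comparison sets STAM livers given I-BET151 against those given vehicle, which differ in carrier as well as drug. No member was called in STAM_treated against STAM_vehicle at an adjusted p of at most 0.1 by edgeR, where 0.351% of all genes were (0.0951% higher and 0.256% lower). DESeq2, limma-voom with sample weights and the fit of only these groups called 0 members too, when 1.5%, 7.16% and 0.048% of all genes were called, and so did every fit that left out a liver. A single member, Cidea, had an unadjusted p under 0.05, against 8.68% of all genes. The 10 log2 fold changes ran from -1.35 to 0.60, with a median of -0.08 (0.02 over all genes), and all 10 members overlapped between the groups. Among all genes, 2.41% were higher and 2.63% lower without overlap.

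Cidea had 0.594, 1.45, 0.520 and 0.758 CPM in STAM_treated against 3.005, 0.533, 2.67 and 2.12 CPM in STAM_vehicle livers. STAM_vehicle replicate 2 was as low as the treated livers, and the other 3 vehicle livers were above all treated ones. The log2 fold change was -1.35 (SE 0.46, adjusted p = 0.382 from edgeR); the adjusted p ranged from 0.147 to 0.722 over the fits that each left out a liver, with log2 fold changes of -1.74 to -1.12. The 3 sequencing lanes that held a liver of each group held STAM_vehicle replicates 1, 3 and 4, the vehicle livers above all treated ones. The treated liver was therefore bound to be lower in each, by 1.43 to 2.26 on the log2 scale, and the lanes cannot test the difference separately. The difference had the same direction in every alternative that kept Cidea and did not pass the threshold in any.

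For the rest, the values after treatment were spread over a wide range. Plin2 had 570, 581, 400 and 423 CPM in STAM_treated livers (log2 fold change -0.12 against STAM_vehicle, SE 0.23) and Plin3 had 55.9, 56.5, 38.2 and 64.7 CPM (log2 fold change -0.02, SE 0.15). Cidec had 54.6, 93.8, 47.7 and 72.9 CPM, inside the range of the vehicle livers (log2 fold change -0.34, SE 0.36). Pnpla2 had 155, 254, 106 and 259 CPM (log2 fold change 0.13, SE 0.24). Replicate 3 was the lowest treated liver for Plin2, Plin3, Plin5, Cidea, Cideb, Cidec and Pnpla2 and the highest for Plin4, Pnpla3 and G0s2.

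Leaving out that liver turned the direction of 4 members in the treatment comparison. G0s2 had 48.6, 111, 288 and 31.4 CPM in STAM_treated livers, and its log2 fold change went from 0.60 (SE 0.53) to -0.31 (SE 0.39) without replicate 3. Plin4, with 70.5, 71.1, 192 and 93.7 CPM, went from 0.38 (SE 0.29) to -0.06 (SE 0.19). Plin3 went from -0.02 to 0.13 and Plin5, with 64.5, 122, 51.3 and 92.8 CPM, from -0.15 to 0.03. The Pnpla3 difference went from -0.04 to -0.60 (SE 0.36). None of these passed the threshold either way, with adjusted p values from edgeR of 0.405 to 0.964 without the liver, where 2.38% of all genes were called.

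**Figure D5:**
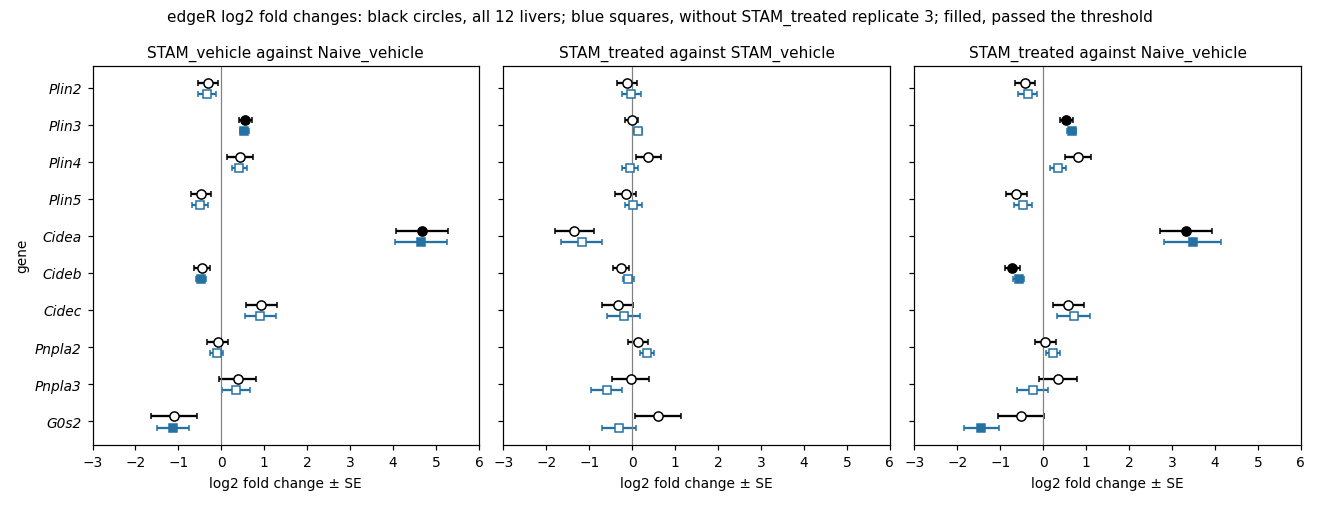
Log2 fold changes ± SE of the 10 genes in the 3 comparisons, from edgeR on all 12 livers (black circles) and without STAM_treated replicate 3 (blue squares), filled where past the threshold. Cidea is far to the right in both comparisons with Naive_vehicle, and no symbol is filled for STAM_treated against STAM_vehicle.

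The third comparison sets the treated STAM livers against the same healthy livers as the first. Here 2 members were higher (Cidea and Plin3) and 1 lower (Cideb) at an adjusted p of at most 0.05 by edgeR, where 9.88% of all genes were called higher and 5.25% lower (15.1% in either direction). At an unadjusted p under 0.05 there were 5 members, against 32.6% of all genes. Groups did not overlap for Cidea and Plin4, which were higher, and Cideb, which was lower, against 10.9% and 8.85% of all genes. The fit of only these groups called 1 member, when 7.88% of all genes were called, and DESeq2 and limma-voom with sample weights called 4 each, against 18% and 29% of all genes. Cidea had 29 to 48 counts against 2 to 4, a log2 fold change of 3.33 (SE 0.61, adjusted p = 0.00399) and a ratio of summed counts of 9.76 with an exact 95% counting interval of 5.42 to 19.3. It passed in all 12 fits that left out a liver. Plin3 had a log2 fold change of 0.54 (SE 0.16, adjusted p = 0.0323), and replicate 3 at 38.2 CPM lay inside the healthy range of 34.6 to 38.9. Without that liver the Plin3 difference was 0.66 (SE 0.11, adjusted p = 0.00153), and the call was lost in 5 of the 12 fits, those without Naive_vehicle replicate 2 (0.0889), 3 (0.0839) or 4 (0.0982) and without STAM_treated replicate 1 (0.0669) or 4 (0.0953).

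Cideb had 30.3, 44.4, 19.9 and 28.7 CPM in STAM_treated livers, all below the 48.2 to 52.3 CPM of the healthy livers (log2 fold change -0.72, SE 0.18, adjusted p = 0.0186 from edgeR). Without replicate 3, the lowest, it was -0.57 (SE 0.13, adjusted p = 0.00884). The call was lost without Naive_vehicle replicate 2 (adjusted p = 0.0565), 3 (0.0531) or 4 (0.0541). Plin4 was higher in every treated than in every healthy liver (log2 fold change 0.81, SE 0.30, adjusted p = 0.0777 from edgeR). Without replicate 3 the log2 fold change was 0.35 (SE 0.19, adjusted p = 0.203 from edgeR). Plin4 was called higher in 2 of 10 other settings, among them DESeq2 on all 12 livers, where 18% of all genes were called. By edgeR it passed without STAM_treated replicate 2 (adjusted p = 0.0362), as did Plin5 (-0.88, adjusted p = 0.0165, against -0.63 and 0.0904 with all livers). G0s2 had a log2 fold change of -0.51 (SE 0.53, adjusted p = 0.528) over all livers and -1.44 (SE 0.41, adjusted p = 0.0265) without replicate 3. The Plin2 difference was -0.43 (SE 0.23) and that of Pnpla2 0.05 (SE 0.24), with Cidec at 0.59 (SE 0.36).

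Leaving out replicate 3 thus gave 4 called members in STAM_vehicle against healthy (Cidea and Plin3 higher, Cideb and G0s2 lower), when 22.3% of all genes were called, and the same 4 in STAM_treated against healthy, when 20.4% were. These comparisons share the Naive_vehicle livers. By lane, only 1 lane held a STAM_vehicle and a healthy liver. In it Cidea differed by 4.32 and Plin3 by 0.29 on the log2 scale, Cideb by -0.30 and G0s2 by -1.45. In the 2 lanes with a treated and a healthy liver Cidea differed by 2.89 and 3.22, Plin3 by 0.71 and 0.73, and Cideb by -0.75 and -0.20. With the lane as a covariate Cidea alone among the members was called against healthy livers.

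A list of 39 other genes of the droplet surface, triglyceride synthesis and lipolysis was read beside the members, 36 of which could be tested. In STAM_vehicle against healthy livers 2 were higher and 3 lower, against 5.72% and 1.38% of all genes, with a median log2 fold change of -0.21. Of 13 genes for triglyceride synthesis and droplet formation, Mogat1, which acylates monoglyceride, rose from 0.753 ± 0.221 to 4.11 ± 1.17 CPM (log2 fold change 2.44, SE 0.31, adjusted p = 0.000653 from edgeR), and the glycerol-phosphate acyltransferase Gpat3 rose from 11.1 ± 1.75 to 17.99 ± 4.82 CPM (0.69, SE 0.18, adjusted p = 0.0316). Of 14 tested lipases and lipase regulators 3 fell, the monoglyceride lipase Mgll from 374 ± 55.4 to 204 ± 25.98 CPM (-0.88, SE 0.21, adjusted p = 0.0214), the carboxylesterase Ces1f from 316 ± 64.5 to 151 ± 30.6 CPM (-1.06, SE 0.29, adjusted p = 0.0443) and Pnpla7 from 152 ± 12.1 to 109 ± 8.51 CPM (-0.47, SE 0.12, adjusted p = 0.0279). None of the 9 other surface proteins tested was called by edgeR, with 5 at an unadjusted p under 0.05 (22.3% of all genes) and 1 (Mettl7b) called lower by DESeq2. With a single liver removed, Mogat1 passed in all 12 fits, while the call was lost in 8 fits for Ces1f (adjusted p up to 0.130), 6 for Pnpla7 (0.1003), 5 for Mgll (0.0821) and 5 for Gpat3 (0.108). Without STAM_treated replicate 3 the list had 4 higher and 14 lower, among them 5 surface proteins that were lower, when 22.3% of all genes were called.

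In STAM_treated against STAM_vehicle livers 0 of the 36 passed by edgeR, against 0.351% of all genes. At an unadjusted p under 0.05 there were 2, against 8.68% of all genes, and DESeq2 called 0. Against healthy livers the treated group had 3 higher and 10 lower, against 9.88% and 5.25% of all genes. Without replicate 3 it had 4 higher and 12 lower (Bscl2 higher, Dgat1 and Hsd17b13 lower in addition), when 20.4% of all genes were called. Mogat1 (log2 fold change 1.99), Gpat3 (0.99) and Lpin3, a phosphatidate phosphatase (0.88), were higher. Ces1f (-1.06), Aadac (-0.96), Mgll (-0.77) and the acyltransferases Gpat4 (-0.71) and Gpam (-0.68) were lower, with adjusted p values from edgeR between 0.00151 and 0.0273 for these 8. With a single liver removed, the call was lost in 4 of 12 fits for Ces1f, 4 for Gpat4, 3 for Mgll and 1 for Aadac, and in none for the other 4. The acyltransferases thus did not move together, Gpat3 being higher and Gpat4 and Gpam lower.

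Of 8 transcription factors that act on droplet and lipase genes, Pparg, the adipogenic nuclear receptor, was higher in STAM_vehicle than in healthy livers, at 12.3 ± 3.03 against 6.28 ± 0.463 CPM (log2 fold change 0.97, SE 0.26, adjusted p = 0.0368 from edgeR). Its call was lost in 7 of the 12 fits that left out a liver, with adjusted p values up to 0.132. Ppara, the fasting receptor, had 108 ± 2.02 against 161 ± 28.6 CPM (-0.58, SE 0.17, adjusted p = 0.0586 from edgeR). It was called lower in STAM_vehicle by DESeq2 (adjusted p = 0.0116), in the fit of only these groups (0.00754) and without STAM_treated replicate 3 (0.0154), and it passed in 3 of the 12 fits with a liver removed. It was also lower in STAM_treated than in healthy livers (-0.76, SE 0.17, adjusted p = 0.0115), where Pparg was higher (0.85, SE 0.26, adjusted p = 0.0396); neither of these was called in the fit of only these groups. The log2 fold changes of STAM_vehicle against healthy were 0.65 for Srebf1, -0.24 for Foxo1, -0.22 for Creb3l3, -0.12 for Mlxipl, -0.07 for Nr1h3 and -0.02 for Hnf4a, none past the threshold over all 12 livers. Srebf1, the lipogenic factor, was called higher without STAM_treated replicate 3 (0.63, SE 0.17, adjusted p = 0.0203 from edgeR) and in the fit of only these groups (adjusted p = 0.0191), and in none of the other 11 fits with a liver removed. In STAM_treated against STAM_vehicle none of the 8 was called by edgeR or DESeq2 and 0 had an unadjusted p under 0.05.

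The genes with the pattern most like each called member were found by the root-mean-square difference in log2 CPM over the 12 livers, each gene centred on its own mean. For Cidea these were Sptlc3, Vtcn1 and Themis, with differences of 0.57, 0.58 and 0.64 against a range of 4.96 for Cidea itself, so the likeness was loose. Themis had 0.440 ± 0.239, 5.82 ± 3.36 and 4.26 ± 1.31 CPM in Naive_vehicle, STAM_vehicle and STAM_treated livers. For Plin3 the nearest were Abhd4, Man2b2 and Grina, each at 0.12. For Cideb they included Bbox1, which makes carnitine, at 0.08 and Bloc1s5 at 0.09.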

How the data were processed

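Liver RNA from 12 mice was sequenced in paired reads from a stranded mRNA kit. The authors mapped the reads, per the labels and the methods of the study, with STAR 2.5.1b to mm10 and counted them per gene with HTSeq; the file labels name featureCounts. The deposited values are raw whole-number counts per gene. The annotation release and the strand setting of the counting are not given in the sources used here. Symbols, positions and exonic lengths came from GENCODE M21, which gave a symbol to 47310 of 47729 gene identifiers, and promoter sequences from RefSeq.

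All 12 livers entered a single fit by group with edgeR 4.0.16 (quasi-likelihood test, TMM, filterByExpr with minimum count 10) in R 4.3.3, with Benjamini-Hochberg adjustment over all 16823 genes tested. SE is the log2 fold change over the square root of F. Thresholds were 0.05 for STAM_vehicle against Naive_vehicle and 0.1 for STAM_treated against STAM_vehicle, as in the study. For STAM_treated against Naive_vehicle the study states none, and 0.05 was chosen here. The methods of the study set aside an unnamed treated sample, while all were kept here. Alternatives used DESeq2 1.42.0, limma 3.58.1 (voom with sample weights), other scalings and filters, the groups compared alone, a replicate block, the lane as a covariate, another threshold and each liver left out. Tables and figures used Python 3.11.15, pandas 2.3.3, NumPy 2.4.6, SciPy 1.17.1 and Matplotlib 3.10.9. The fits were tested on simulated data.

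Members and lists were chosen with earlier results of these data known. All 10 members are named, genes of the wider list that passed (at most 8 a comparison, by size), each transcription factor, and the 3 genes most alike to each called member, of which a single gene is not reported here. The labels name the livers as separate samples and say no more, so p-values measure the spread between these samples.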

Additional observations from a re-analysis of the deposited data

Results flagged for a closer look

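G0s2 in Naive_vehicle livers was singled out because replicate 2, at 237 CPM, stood far above the other 3 healthy livers (141 to 154 CPM): its gap to the nearest of them was 0.866 of the whole range of the group, above Dixon's 95% critical value for 4 samples. In all, 30 groups of values (10 members in 3 groups) were looked at, and chance alone marks about 1 in 20. Without that liver the log2 fold change of G0s2 in STAM_vehicle against Naive_vehicle was -0.91 (adjusted p = 0.455 from edgeR), against -1.11 with it.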

How the results depend on the processing

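The call of Cidea against Naive_vehicle held in every alternative that kept the gene, with log2 fold changes of 3.89 to 5.47 in STAM_vehicle and 2.94 to 3.64 in STAM_treated. The filter of 10 counts in every liver removed Cidea. In STAM_vehicle against Naive_vehicle 2 members were called. The number was 1 with RLE normalization, without a low-count filter, with the filter of 10 counts in all livers and with the sequencing lane as a covariate, 4 with limma-voom with sample weights and 5 in the fit of only these groups. Leaving out single livers gave 1 to 4. In STAM_treated against Naive_vehicle, with 3 called, the number was 1 with only these groups fitted and 1 with the lane as a covariate, 5 at the other threshold (0.1), and 1 to 5 with single livers left out. The wider list, with 5 called in STAM_vehicle against Naive_vehicle, had 9 by DESeq2, 22 by limma-voom, 18 with only these groups, 0 with the lane, 10 at the other threshold, 21 by DESeq2 without STAM_treated replicate 3 (an alternative added after seeing the data) and 1 to 18 with single livers left out. In STAM_treated against STAM_vehicle it had 0, and 1 by limma-voom and 1 by DESeq2 without STAM_treated replicate 3. In STAM_treated against Naive_vehicle it had 13, and 7 with total counts only, 6 with only these groups, 0 with the lane and 6 to 17 with single livers left out.

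Over all genes the calls in STAM_vehicle against Naive_vehicle (1195) ran from 546 to 3779 with single livers left out and from 37 to 5672 over the other settings, those in STAM_treated against STAM_vehicle (59) from 13 to 403 and 0 to 1205, and those in STAM_treated against Naive_vehicle (2546) from 1292 to 3731 and 85 to 4880. Scaling by total counts only moved the median of all genes up by 0.27, 0.11 and 0.40 in these comparisons, and the share of calls that were higher from 80.6% to 95.4% in the first and from 65.3% to 92.9% in the third (75.5% with upper-quartile normalization). The sign of log2 fold changes turned in STAM_vehicle against Naive_vehicle with total counts only for Pnpla2 (0.19), Creb3l3 (0.054), Mlxipl (0.14), Foxo1 (0.030), Nr1h3 (0.20), Hnf4a (0.26), with the lane for Pnpla2 (0.48), Pnpla3 (-0.51), Hnf4a (0.48), with upper-quartile for Hnf4a (0.044), with 10 counts in every liver for Hnf4a (0.013), by limma-voom for Hnf4a (0.070). It turned in STAM_treated against STAM_vehicle by limma-voom for Plin2 (0.040), Plin3 (0.21), Cidec (0.057), G0s2 (-0.50), Pparg (0.26), Creb3l3 (-0.056), Srebf1 (-0.31), Mlxipl (-0.13), with upper-quartile for Plin3 (0.0060), Pnpla3 (0.017), with total counts only for Plin3 (0.034), Pnpla3 (0.24), by DESeq2 without STAM_treated replicate 3 for Plin3 (0.13), Plin4 (-0.056), Plin5 (0.032), G0s2 (-0.30), Pparg (0.12), Creb3l3 (-0.00057), Srebf1 (-0.27), Mlxipl (-0.16), with the lane for Pnpla2 (-0.15), Pnpla3 (0.095). It turned in STAM_treated against Naive_vehicle by limma-voom for Pnpla3 (-0.047), with the lane for Pnpla3 (-0.42), by DESeq2 without STAM_treated replicate 3 for Pnpla3 (-0.24), with total counts only for G0s2 (0.13). Leaving out single livers changed the sign in STAM_vehicle against Naive_vehicle for Mlxipl (-0.27 to 0.013), Hnf4a (-0.082 to 0.078), in STAM_treated against STAM_vehicle for Plin2 (-0.26 to 0.12), Plin3 (-0.11 to 0.13), Plin4 (-0.060 to 0.53), Plin5 (-0.41 to 0.027), Cidec (-0.59 to 0.14), Pnpla2 (-0.033 to 0.35), Pnpla3 (-0.60 to 0.19), G0s2 (-0.31 to 0.92), Pparg (-0.26 to 0.12), Creb3l3 (-0.0049 to 0.17), Srebf1 (-0.27 to 0.24), Mlxipl (-0.16 to 0.92), in STAM_treated against Naive_vehicle for Pnpla2 (-0.13 to 0.24), Pnpla3 (-0.25 to 0.61), and the values of changed sign all missed the threshold.

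The groups share replicate numbers, but same-numbered livers did not deviate together (mean correlation of their deviations -0.093 over 12 pairs, 0.031 over 36 other pairs), so the numbers name samples only. With the replicate block 1 member (Cidea) and 1 gene of the wider list were called in STAM_vehicle against Naive_vehicle, and Plin3 had adjusted p = 0.105 there and 0.0805 in STAM_treated against Naive_vehicle. Cidea had 2 to 4 counts a liver in Naive_vehicle and Pnpla3 11 to 88 in all livers, so small differences in them were not detectable at this depth.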
